A study of Mus with 10 samples.

Results

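The 10 genes described here encode the NKG2 and NKR-P1 lectin-like receptors of liver type 1 innate lymphoid cells (ILC1s), together with their partner CD94 and the related receptor KLRG1. They were taken by name from the deposited count table, which lists 24564 genes, and comprise *Klrc1*, *Klrc2*, *Klrc3*, *Klrd1*, *Klrk1*, *Klrb1a*, *Klrb1b*, *Klrb1c*, *Klrb1f* and *Klrg1*. All 10 had enough reads to be tested, as did 11463 genes of the whole table. Their levels were compared between 5 libraries of ILC1s from Ncr1gfp/gfp mice (labelled Ncr1-KO), in which *gfp* replaces *Ncr1*, the gene of the activating receptor NKp46, and 5 libraries from Ncr1+/+ mice (labelled Ncr1-WT). All mice were C57BL/6, 6 to 8 weeks old and male or female, and none received a treatment that the labels name. The gates of the sort from liver included CD3-negative, NK1.1+, CD49b-negative and CD49a+, with NKp46 as a further gate in Ncr1+/+ ILC1s and GFP in Ncr1gfp/gfp ILC1s. NK1.1 is the product of *Klrb1c*, so that this one receptor was used to choose the cells in both genotypes. The labels do not say whether each library came from a separate mouse, the study also calls the RNA pooled, and the p-values below measure only the spread between these libraries.

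Lectin-like receptors of this family let natural killer (NK) cells and ILC1s read the state of their neighbours. NKG2 chains pair with CD94 and bind the non-classical MHC molecule Qa-1, with NKG2A as the inhibitory and NKG2C and NKG2E as the activating chains, whereas NKG2D forms homodimers and binds stress-induced ligands. NKR-P1 receptors bind the Clr proteins, which are themselves lectin-like molecules encoded among the receptor genes, and KLRG1 is an inhibitory receptor for cadherins.

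The targeted gene was examined first. Levels are given as CPM, which are counts scaled to library size after TMM normalization. *Ncr1* lay between 141 and 356 CPM in Ncr1gfp/gfp libraries and between 1913 and 2144 CPM in Ncr1+/+ libraries, and was called lower (log2 fold change -2.97, standard error 0.18). The 10 libraries held between 15796253 and 22623133 counts each, and 3 counts corresponded to between 0.132 and 0.190 CPM. A list of ILC1 marker genes was then read. Of 9 ILC1 markers, 8 were in the table, and all 8 were detected. *Itga1*, which encodes the CD49a of the positive gate, had 971 ± 35.1 CPM in Ncr1gfp/gfp and 779 ± 30.4 CPM in Ncr1+/+ ILC1s. *Tbx21*, which encodes T-bet, had 414 ± 24.5 and 452 ± 35.2 CPM (mean ± SD, n = 5 each). CD49a was selected by the sort, and the study states that NK cells also require T-bet. Neither level therefore tests the ILC1 identity of the cells. Of 10 NK cell markers, *Klra4* was at 0 in all libraries and *Eomes*, which defines conventional NK cells, had 10.2 ± 4.88 and 7.10 ± 1.08 CPM, while *Irf8* (128 ± 6.92 and 150.4 ± 9.28 CPM), *Itgam* (96.0 ± 18.7 and 49.4 ± 6.50 CPM) and *Itga2*, which encodes the CD49b of the negative gate (44.9 to 59.9 and 31.7 to 47.6 CPM), were the most abundant.

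The receptor genes were expressed in the ILC1s of both genotypes, from *Klrb1c* and *Klrk1* with means of 1333 and 1213 CPM in Ncr1gfp/gfp ILC1s to *Klrg1* with 5.34 CPM. None of the 10 was called different between the genotypes. A gene was called when its adjusted p-value was under 0.05 (edgeR, quasi-likelihood, with the Benjamini-Hochberg procedure run over all 11463 tested genes) and its fold change was above 1.5 or below 0.7. By this rule 0.733% of all tested genes were called, 0.201% as higher and 0.532% as lower in Ncr1gfp/gfp ILC1s, so that 0 of 10 is near what this background gives. With the fold threshold set aside, 1.35% of all tested genes and 0 of the 10 receptor genes had an adjusted p under 0.05. At an unadjusted p under 0.05 from the same edgeR test there were 3 of the 10, namely *Klrd1*, *Klrb1f* and *Klrb1b*, against 1303 of all tested genes, and 0 of the 10 were called by DESeq2, limma-voom or edgeR's likelihood ratio test. For none of the 10 did the libraries of the genotypes separate. Over all tested genes, 1.28% were higher and 1.82% were lower in every Ncr1gfp/gfp library than in every Ncr1+/+ library, so that this 0 of 10, too, is near the background. The log2 fold change, given throughout as Ncr1gfp/gfp against Ncr1+/+, was above 0 for 7 and below 0 for 3 of the 10 genes. Its median was 0.02, and that over all tested genes was 0.003. In such bulk libraries, fewer cells that carry a receptor cannot be told apart from less of its RNA in each cell.

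**Figure D1:**
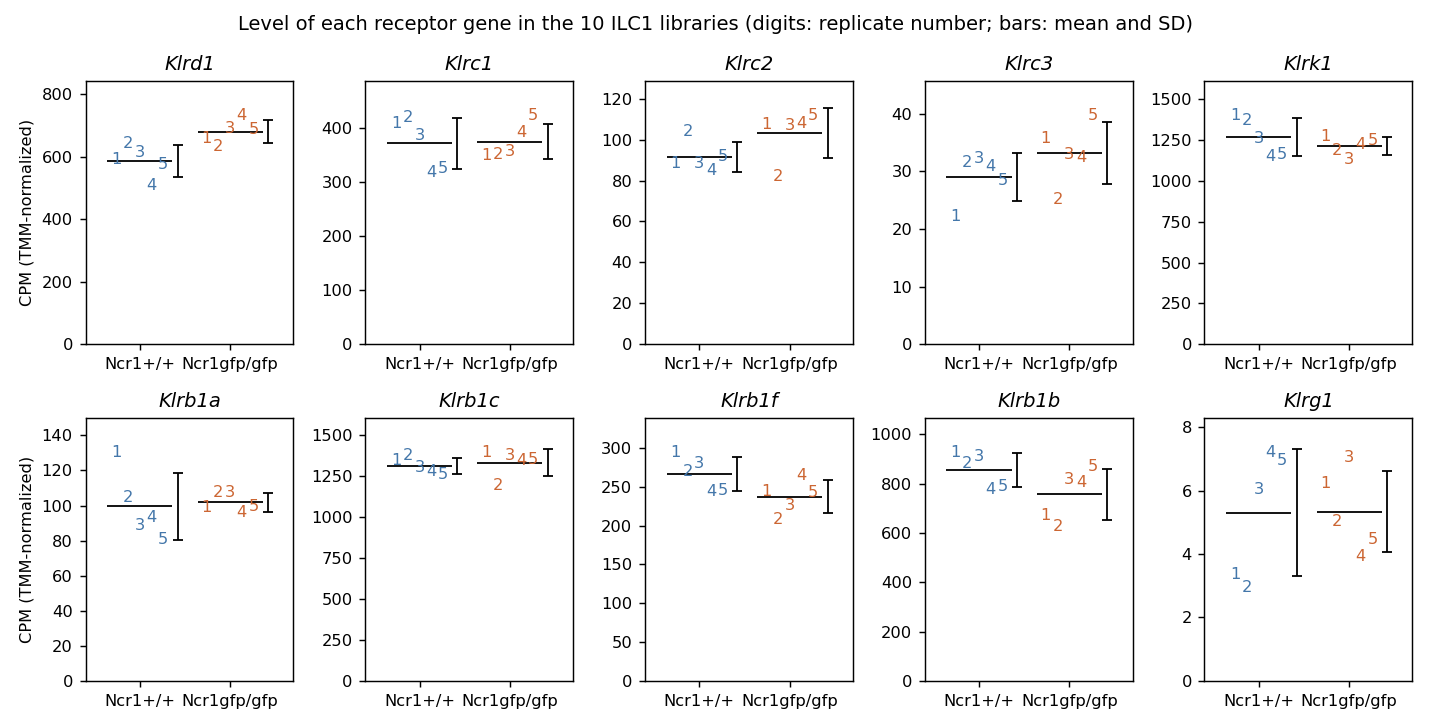
Level of each of the 10 receptor genes (CPM, TMM-normalized, linear axes from 0) in the 5 Ncr1+/+ and 5 Ncr1gfp/gfp libraries, drawn as the replicate number of each library, with a horizontal line at the mean and a bar of 1 SD to either side. In every panel the libraries of the genotypes overlap, most nearly separating for *Klrd1*, where Ncr1gfp/gfp replicate 2 lies below Ncr1+/+ replicate 2.

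*Klrd1* encodes CD94, the shared partner without which the NKG2A, NKG2C and NKG2E chains do not reach the cell surface as receptors. Its level was 593, 643, 613, 507 and 576 CPM in Ncr1+/+ replicates 1 to 5 and 661, 632, 689.7, 733 and 689 CPM in Ncr1gfp/gfp replicates 1 to 5. Thus 4 of the 5 Ncr1gfp/gfp libraries were above all Ncr1+/+ libraries, and replicate 2 was below a single one of them. The means were 681 ± 37.5 CPM in Ncr1gfp/gfp and 587 ± 51.0 CPM in Ncr1+/+ ILC1s (mean ± SD, n = 5 each), or 0.22 as a log2 fold change (standard error, SE, 0.06). With an adjusted p of 0.0759 (edgeR, unadjusted p = 0.00143), it did not pass the threshold. The 95% interval of the fold ran from 1.07 to 1.26, an interval for a single gene that is not widened for the number of genes tested. *Klrd1* had the lowest p-value of the 10 genes, and its fold remained under the threshold of 1.5 in each of the 19 alternative fits, with log2 fold changes between 0.17 and 0.25. Its adjusted p passed 0.05 in 4 of them, at 0.0220 in DESeq2, 0.0212 in limma-voom, 0.0312 in edgeR without a filter on low counts, and 0.0371 in edgeR without Ncr1+/+ replicate 2.

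*Klrc1* encodes NKG2A, the inhibitory chain, which carries ITIM motifs. Its level was 409, 418, 387, 318 and 324 CPM in Ncr1+/+ replicates 1 to 5 and 349, 350.5, 357, 391 and 423 CPM in Ncr1gfp/gfp replicates 1 to 5. The ranges almost coincided, with replicates 4 and 5 low among the Ncr1+/+ and high among the Ncr1gfp/gfp libraries. On the log2 scale the fold change was 0.01 ± 0.08 (SE, adjusted p = 0.978, edgeR), with a 95% interval of the fold from 0.902 to 1.13.

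*Klrc2* encodes NKG2C, which lacks ITIMs and signals through the adaptor DAP12. Its level was 88.4, 104, 88.5, 84.9 and 91.5 CPM in Ncr1+/+ replicates 1 to 5 and 107, 81.8, 107, 108 and 112 CPM in Ncr1gfp/gfp replicates 1 to 5. Of the Ncr1gfp/gfp libraries, 4 lay above and 1, replicate 2, lay below every Ncr1+/+ library. This gave a log2 fold change of 0.17 ± 0.08 (SE, adjusted p = 0.445, unadjusted p = 0.0515, edgeR), and the 95% interval of the fold ran from 0.999 to 1.27. *Klrc3*, the gene of NKG2E, was the lowest of these chains, with 22.1, 31.5, 32.2, 30.9 and 28.4 CPM in Ncr1+/+ and 35.7, 25.2, 33.0, 32.4 and 39.7 CPM in Ncr1gfp/gfp replicates 1 to 5. Here, too, 4 Ncr1gfp/gfp libraries were above all Ncr1+/+ libraries and replicate 2 was not. For *Klrc3* the log2 fold change reached 0.19 ± 0.13 (SE, adjusted p = 0.630, edgeR), with a fold interval from 0.952 to 1.37. *Klrc1*, *Klrc2* and *Klrc3* are close paralogs, and reads that map to more than one place were not counted, so that the level of each may be understated and their proportions shifted.

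The makeup of the NKG2 pool was therefore described as shares of summed counts. *Klrc1* supplied 73.3 ± 2.19% of the *Klrc1*, *Klrc2* and *Klrc3* counts in Ncr1gfp/gfp and 75.3 ± 2.34% in Ncr1+/+ ILC1s, *Klrc2* 20.2 ± 1.61% and 18.7 ± 1.48%, and *Klrc3* 6.48 ± 0.697% and 5.97 ± 1.08% (mean ± SD, n = 5 each). Each of these shares overlapped between the genotypes. Counts favour the long *Klrc1* transcript, and per kilobase of listed exon the shares in Ncr1gfp/gfp and Ncr1+/+ ILC1s were 51.0 ± 2.84% and 53.7 ± 3.24% for *Klrc1*, 35.6 ± 2.01% and 33.7 ± 1.83% for *Klrc2*, and 13.4 ± 1.16% and 12.6 ± 2.01% for *Klrc3*. *Klrc1* had the largest of the shares in all 10 libraries on either scale, but per kilobase it was below 50% in Ncr1gfp/gfp replicates 1 (48.0%) and 3 (49.1%), and the genotypes overlapped again. The 3 chains together had 511 ± 44.5 CPM in Ncr1gfp/gfp and 492 ± 51.3 CPM in Ncr1+/+ ILC1s. Set against their partner, the chains were 42.8 ± 1.53% of the sum of their own and *Klrd1* counts in Ncr1gfp/gfp and 45.6 ± 1.25% in Ncr1+/+ ILC1s. In Ncr1gfp/gfp replicates 1 to 5 this share was 42.7, 42.0, 41.9, 42.0 and 45.5%, and in Ncr1+/+ replicates 1 to 5 it was 46.7, 46.3, 45.3, 46.1 and 43.5%. The first 4 Ncr1gfp/gfp libraries lay below all Ncr1+/+ libraries, and the fifth lay within their range. The shares were not tested, and they rest on the listed gene models. The listed span was 38.2% of the RefSeq span for *Klrc2*, 58.0% for *Klrc3*, 65.2% for *Klrd1* and 77.0% for *Klrc1*. Reads outside the listed exons were not counted, which may shift the shares.

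*Klrk1* encodes NKG2D, which pairs with the adaptors DAP10 and DAP12 rather than with CD94. Its level was 1402, 1373, 1263, 1151 and 1161 CPM in Ncr1+/+ replicates 1 to 5 and 1275, 1187, 1134, 1224 and 1247 CPM in Ncr1gfp/gfp replicates 1 to 5. The Ncr1gfp/gfp libraries lay within or just under the wider range of the Ncr1+/+ libraries. *Klrk1* thus had a log2 fold change of -0.07 ± 0.06 (SE, adjusted p = 0.747, edgeR), and the 95% interval of the fold, from 0.882 to 1.03, was among the narrowest of the 10.

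Among the NKR-P1 receptors, *Klrb1c* encodes the activating receptor NKR-P1C, known as NK1.1. It had 1344, 1375, 1302, 1277 and 1258 CPM in Ncr1+/+ and 1398, 1194, 1378, 1345 and 1349.5 CPM in Ncr1gfp/gfp replicates 1 to 5. Replicate 2 was the lowest of all 10 libraries, and the other Ncr1gfp/gfp libraries were in or just above the Ncr1+/+ range. Its difference on the log2 scale was 0.02 ± 0.05 (SE, adjusted p = 0.918, edgeR), with a fold interval from 0.951 to 1.09. Because all cells were sorted as NK1.1+, these libraries do not bear on the share of liver cells that carry this receptor.

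*Klrb1b* encodes the inhibitory NKR-P1B, whose ligand is Clr-b. Its level was 928, 880.5, 909, 777 and 788 CPM in Ncr1+/+ replicates 1 to 5 and 671, 626, 816, 804 and 870.1 CPM in Ncr1gfp/gfp replicates 1 to 5. Only Ncr1gfp/gfp replicates 1 and 2 were below all Ncr1+/+ libraries. *Klrb1b* had a log2 fold change of -0.18 ± 0.08 (SE, unadjusted p = 0.0298, adjusted p = 0.350, edgeR), and the 95% interval of the fold ran from 0.792 to 0.987.

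*Klrb1f* encodes NKR-P1F, a receptor for Clr-g. It had 295, 269.9, 280.1, 244 and 245 CPM in Ncr1+/+ and 244, 208, 226, 265 and 242 CPM in Ncr1gfp/gfp replicates 1 to 5. Of the Ncr1gfp/gfp libraries, 3 lay below all Ncr1+/+ libraries, and none lay above them. Its log2 fold change of -0.17 ± 0.07 (SE, unadjusted p = 0.0226, adjusted p = 0.316, edgeR) was close to that of *Klrb1b*, with a fold interval from 0.804 to 0.982. *Klrb1a*, the gene of NKR-P1A, was the lowest of the NKR-P1 genes, with 130.5, 104, 88.4, 93.3 and 80.8 CPM in Ncr1+/+ and 98.9, 107, 108, 96.0 and 99.3 CPM in Ncr1gfp/gfp replicates 1 to 5. All Ncr1gfp/gfp libraries were inside the Ncr1+/+ range, which was set at its upper end by replicate 1. A log2 fold change of 0.03 was found for *Klrb1a* (standard error 0.10, adjusted p = 0.942, edgeR), with a fold interval from 0.889 to 1.18.

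Together the NKR-P1 genes had 2429 ± 173 CPM in Ncr1gfp/gfp and 2534 ± 145 CPM in Ncr1+/+ ILC1s (mean ± SD, n = 5 each), which overlapped. *Klrb1c* supplied 54.9 ± 2.07% of these counts in Ncr1gfp/gfp and 51.8 ± 1.58% in Ncr1+/+ ILC1s. The corresponding shares of *Klrb1b* were 31.1 ± 2.48% and 33.8 ± 1.07%, those of *Klrb1f* 9.76 ± 0.621% and 10.5 ± 0.349%, and those of *Klrb1a* 4.22 ± 0.484% and 3.91 ± 0.582%. Per kilobase, *Klrb1c* had 47.5 ± 1.87% and 44.6 ± 1.62%, and *Klrb1b* 32.0 ± 2.53% and 34.6 ± 0.991%. The order of the NKR-P1 genes in this pool was the same in both genotypes, and no share separated them on either scale.

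**Figure D2:**
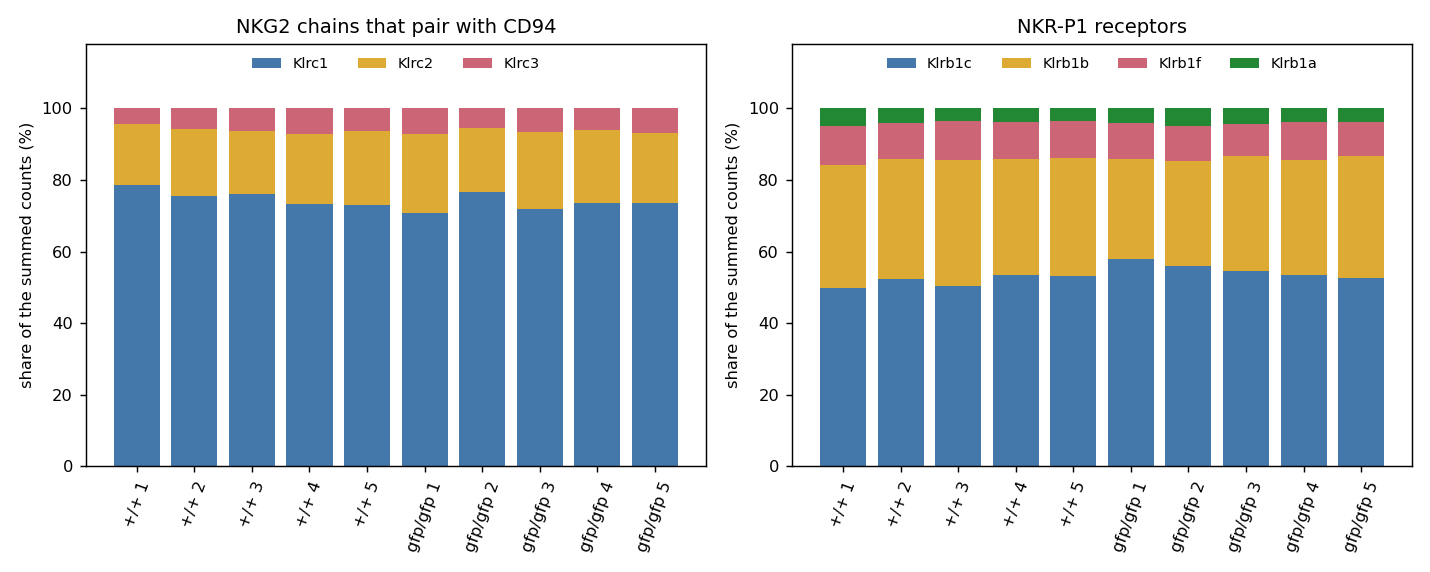
Share of the summed counts (%, linear axis from 0) of the NKG2 chains that pair with CD94 (left) and of the NKR-P1 receptors (right), one stacked bar for each of the 5 Ncr1+/+ and 5 Ncr1gfp/gfp libraries. *Klrc1* makes up between 70.9 and 78.7% of the left-hand pool and *Klrb1c* between 49.8 and 58.0% of the right-hand pool, with overlap between the genotypes, and scaled for length, which is not drawn, *Klrc1* makes up between 48.0 and 58.5%.

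*Klrg1*, the inhibitory cadherin receptor that marks mature NK cells, had the lowest level of the 10 genes. It had 60, 67, 121, 143 and 128 counts in Ncr1+/+ and 98, 110, 133, 66 and 75 counts in Ncr1gfp/gfp replicates 1 to 5, which is 5.31 ± 2.02 CPM and 5.34 ± 1.28 CPM (mean ± SD, n = 5 each). The values of both genotypes were scattered over the same range. Between the genotypes the log2 fold change was 0.01 ± 0.29 (SE, adjusted p = 0.997, edgeR), and the 95% interval of the fold was the widest of the 10, from 0.666 to 1.52. The interval reached past both fold thresholds, so that a change of that size could not be told from none in these libraries, and the sign of its fold change turned in 6 of the 19 alternative fits.

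The intervals bound what these libraries could have hidden. For 9 of the 10 receptor genes, that is for all but *Klrg1*, the 95% interval lay wholly between the fold thresholds of 0.7 and 1.5. The same held for 68.5% of all tested genes, and for 97.6% of the 5580 tested genes whose mean level was at least that of *Klrc3*, so that narrow intervals were general at these levels. An interval that includes a fold of 1 does not show that the level was the same.

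**Figure D3:**
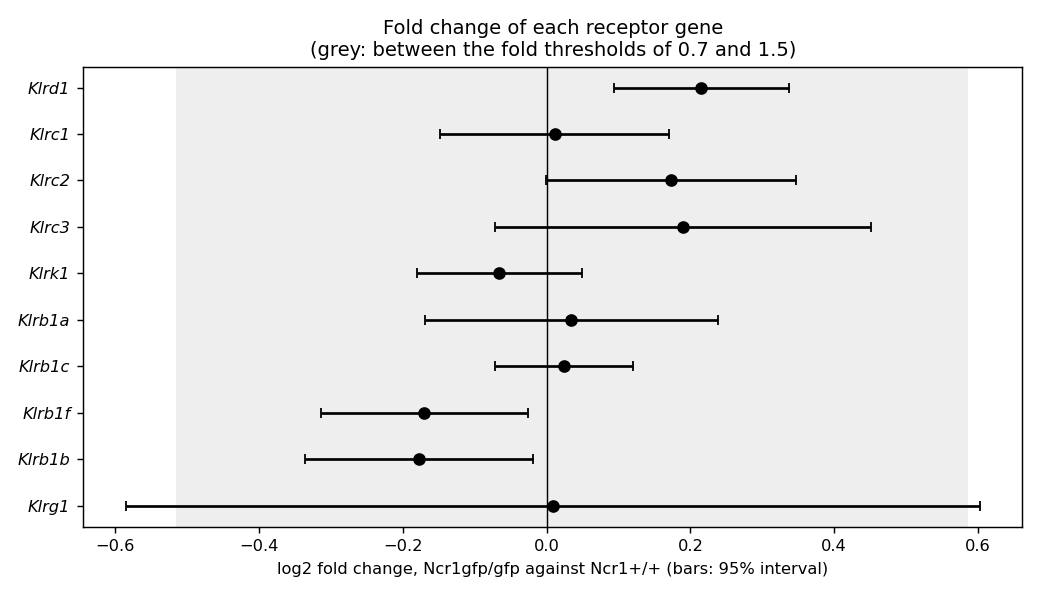
Log2 fold change of each receptor gene in Ncr1gfp/gfp against Ncr1+/+ ILC1s (5 libraries each, edgeR), with bars for the 95% interval of a single gene and grey shading between the fold thresholds of 0.7 and 1.5. The bars of 9 genes stay inside the shading, and that of *Klrg1*, from 0.666 to 1.52 on the fold scale, passes it on both sides.

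To compare levels between genes, counts were divided by the exon length listed for each gene (RPKM). *Klrd1* was highest, with a mean of 786 RPKM in Ncr1gfp/gfp and 677 RPKM in Ncr1+/+ ILC1s, and 25 tested genes had a higher level. It was followed by *Klrb1c* (506 and 498 RPKM), *Klrk1* (363 and 380 RPKM) and *Klrb1b* (342 and 387 RPKM). *Klrk1* and *Klrb1b* could not be ordered, since *Klrk1* was the higher of the pair in 4 of 10 libraries. The inhibitory chain gene *Klrc1* came next (189 and 187 RPKM), followed by *Klrb1f* (139 and 156 RPKM) and *Klrc2* (132 and 117 RPKM). *Klrc1* was above *Klrb1f* in 10 of 10 libraries, although their ranges overlapped, and *Klrb1f* was above *Klrc2* in 8 of 10. *Klrb1a* (79.9 and 78.1 RPKM), *Klrc3* (49.9 and 43.6 RPKM) and *Klrg1* (3.92 and 3.90 RPKM) closed the order without overlap between neighbours. For *Klrg1*, 8514 of the tested genes had a higher level. The order rests on the listed gene models, and the listed span was 38.2% of the RefSeq span for *Klrc2*, 58.0% for *Klrc3*, 65.2% for *Klrd1*, 77.0% for *Klrc1* and 83.3% for *Klrb1f*, against at least 99.7% for the other 5 genes.

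**Figure D4:**
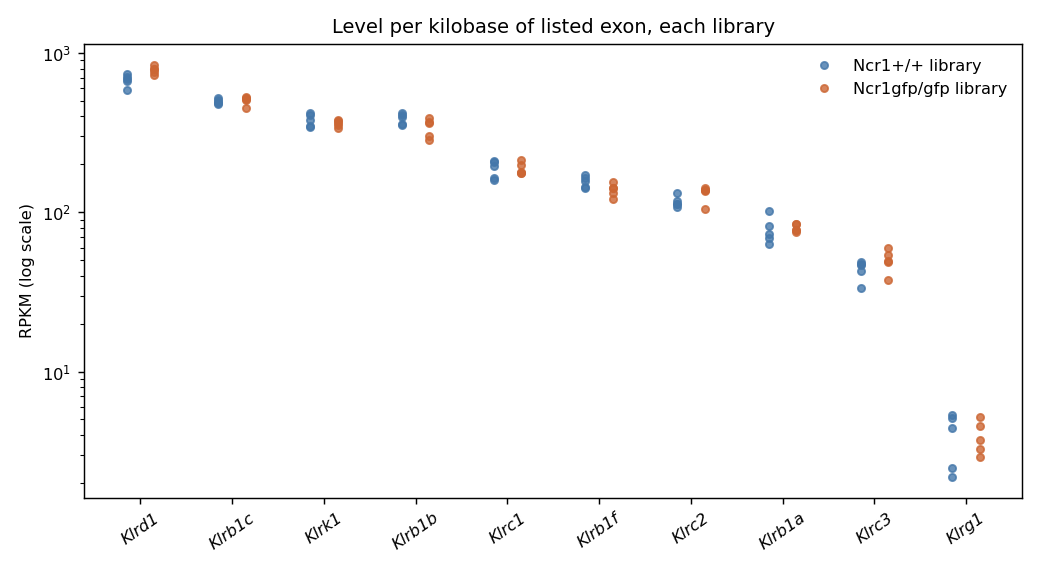
Level of each receptor gene per kilobase of listed exon (RPKM, log axis), one point for each library, with Ncr1+/+ libraries on the left and Ncr1gfp/gfp libraries on the right of each gene. The levels run from 847 RPKM for *Klrd1* to 2.17 RPKM for *Klrg1*, and *Klrk1* and *Klrb1b* lie at the same height.

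Libraries of the same genotype differed in how they stood across the 10 genes. Ncr1gfp/gfp replicate 2 was the lowest of its genotype for 6 of the 10 receptor genes, and was so for 23.6% of all tested genes. Ncr1+/+ replicates 4 and 5 were the lowest pair of their genotype for *Klrd1*, *Klrc1*, *Klrk1*, *Klrb1b*, *Klrb1c* and *Klrb1f*, and for 12.4% of all tested genes. Receptor genes of one library are not independent of each other, and these counts are descriptions with no test.

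All of these genes except *Klrg1* lie in 1 stretch of chromosome 6, listed from 128559245 to 129628991 in coordinates whose genome build the table does not name. *Klrb1a* opens the stretch, followed by *Klrb1c*, *Klrb1b* and *Klrb1f* with the Clr genes among them, and *Klrd1*, *Klrk1*, *Klrc3*, *Klrc2* and *Klrc1* close it. *Klrg1* is listed apart, on the minus strand from 122220619 to 122232851 of the same chromosome. The stretch holds 35 listed genes, of which 19 were tested. None of these was called by edgeR (5 at an unadjusted p under 0.05) nor by DESeq2 or limma-voom. Over all tested genes, 0.733% were called and 1303 of 11463 had an unadjusted p under 0.05 (edgeR). Of the 19, 9 had a positive and 10 a negative log2 fold change, and the median was -0.002. No listed span of a receptor gene overlaps that of another gene.

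The lectin-like receptor genes that follow *Klrc1* on the chromosome did include called genes. Of a list of 17 other lectin-like receptors, some of which lie before *Klrc1*, 16 were in the table under the name used and 13 were tested. Of these, 2, *Klra5* and *Klra7*, were called higher in Ncr1gfp/gfp ILC1s and none lower, where 0.733% of all tested genes were called. Of the 13, 12 had a positive log2 fold change, with a median of 0.35, against 5815 of 11463 tested genes and a median of 0.003. The 13 include genes with means down to 0.622 CPM in Ncr1+/+ ILC1s, and the list holds near-identical *Klra* paralogs whose counts may be split between them. *Klra5* encodes the inhibitory receptor Ly49E and had 175 ± 28.4 CPM in Ncr1+/+ and 270.0 ± 39.6 CPM in Ncr1gfp/gfp ILC1s (mean ± SD, n = 5 each; log2 fold change 0.62, adjusted p = 0.00207, edgeR). Its adjusted p stayed under 0.05 in all 19 alternative fits, but its fold fell under 1.5 in 4 of them, so that 1 gene of the list was called without Ncr1gfp/gfp replicate 2 and also 1 without Ncr1+/+ replicate 1. *Klra7* encodes the inhibitory receptor Ly49G and had 8.63, 7.41, 5.10, 5.00 and 5.61 CPM in Ncr1+/+ and 17.3, 11.5, 33.5, 21.9 and 9.94 CPM in Ncr1gfp/gfp replicates 1 to 5 (log2 fold change 1.57, standard error 0.27, adjusted p = 0.00235, edgeR). *Klri2*, the next tested gene but one after *Klrc1*, encodes a partner of KLRE1 and had 304 ± 18.2 CPM in Ncr1+/+ and 388 ± 32.9 CPM in Ncr1gfp/gfp ILC1s, with no overlap (log2 fold change 0.35, adjusted p = 0.00320). It passed the p-value threshold but not the fold threshold, and *Klre1*, which lies just before *Klrd1* and is the most abundant of the 13, differed by 0.04 on the log2 scale (adjusted p = 0.851, edgeR). *Klri1*, which lies between *Klrc1* and *Klri2*, differed by 0.40 on the log2 scale (adjusted p = 0.0978, edgeR). Whether the log2 fold changes of these genes differ from those of the NKG2 and NKR-P1 genes was not tested.

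**Figure D5:**
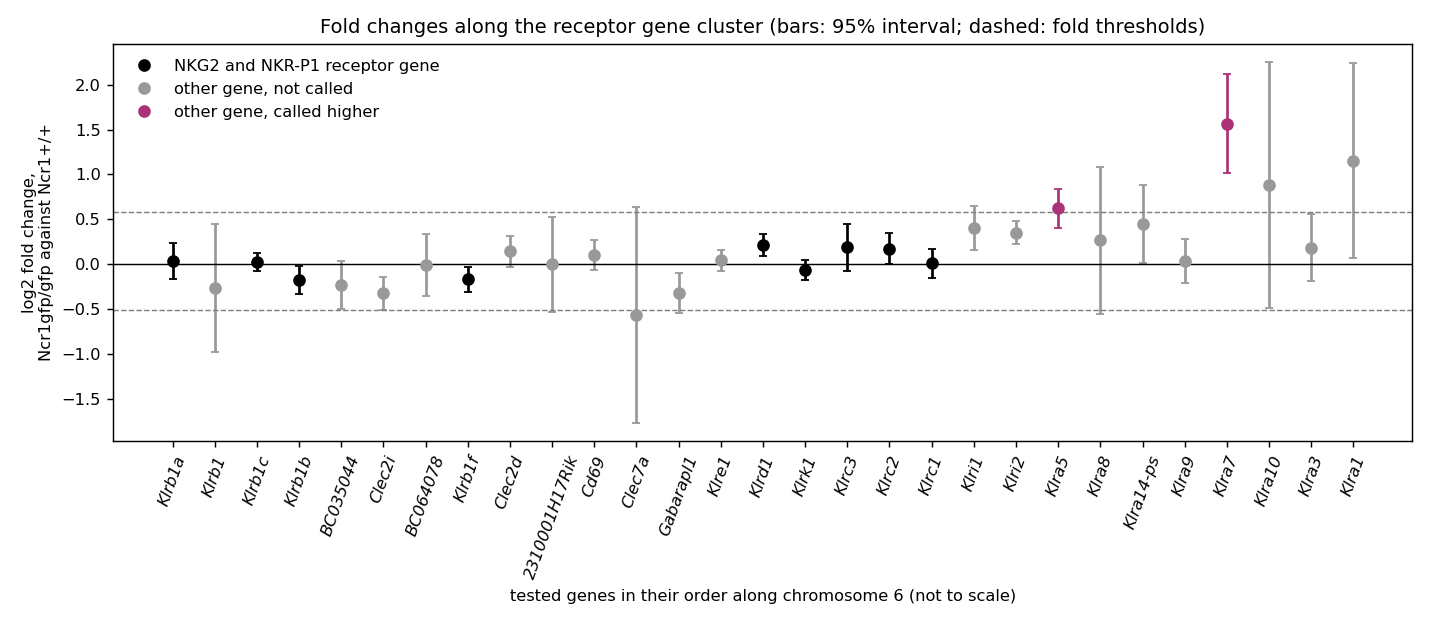
Log2 fold change (Ncr1gfp/gfp against Ncr1+/+, edgeR, 5 libraries each) of the tested genes in their listed order along chromosome 6, not to scale, from *Klrb1a* through *Klrc1* to *Klra1*, with bars for the 95% interval and dashed lines at the fold thresholds. The NKG2 and NKR-P1 genes (black) lie between -0.18 and 0.22, and the called *Klra5* and *Klra7* (0.62 and 1.57) lie to the right of *Klrc1*.

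The signalling partners of the receptors were listed separately. Of 16 adaptors and proximal kinases, all were tested and 0 were called, with 10 positive and 6 negative log2 fold changes and a median of 0.01. At an unadjusted p under 0.05 there were 3 of the 16, and DESeq2 and limma-voom also called 0. Over all tested genes, 0.733% were called and 1303 of 11463 had an unadjusted p under 0.05 (edgeR), the background for each count of this paragraph. *Tyrobp*, which encodes the DAP12 adaptor of NKG2C and NKG2D, had 670 ± 48.8 CPM in Ncr1gfp/gfp and 604 ± 26.2 CPM in Ncr1+/+ ILC1s (mean ± SD, n = 5 each; log2 fold change 0.15, adjusted p = 0.220, edgeR). *Hcst*, which encodes the DAP10 adaptor of NKG2D, had 70.7 ± 5.16 and 71.4 ± 4.34 CPM (log2 fold change -0.01, adjusted p = 0.971). The most abundant genes of the list, *Pik3cd*, *Lck* and *Tyrobp*, had log2 fold changes of 0.01, -0.01 and 0.15. For the phosphatases that bind ITIMs, *Ptpn6* (SHP-1), *Ptpn11* (SHP-2) and *Inpp5d* (SHIP-1), 0 of 3 were called by edgeR, DESeq2 or limma-voom and 1 had an unadjusted p under 0.05, with log2 fold changes of 0.09, 0.16 and -0.04 and adjusted p = 0.558, 0.315 and 0.888, in that order (edgeR).

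Of 18 ligand genes of these receptors, 5 were tested, 8 had no count in any library, and 1 was called, where 0.733% of all tested genes were called. Those without a count include *Raet1* genes whose listed spans overlap, and reads that map to more than one place were not counted. A count of 0 there need not mean that no RNA was present. The called gene was *Cdh1*, which encodes E-cadherin, a ligand of KLRG1. Its level was between 45.4 and 63.7 CPM in Ncr1+/+ and between 89.5 and 111 CPM in Ncr1gfp/gfp libraries, so that every Ncr1gfp/gfp library was higher (log2 fold change 0.95, standard error 0.09, adjusted p = 2.35e-06, edgeR). *Clec2i*, which encodes Clr-g and lies between *Klrb1b* and *Klrb1f*, had 157, 135, 124, 123 and 123 CPM in Ncr1+/+ and 104, 87.3, 102, 114 and 122 CPM in Ncr1gfp/gfp replicates 1 to 5. Its values were lower in every Ncr1gfp/gfp library, with the nearest libraries almost touching (log2 fold change -0.33, adjusted p = 0.0710, edgeR), and it was not called. In the table, the span of *Clec2i* overlaps that of *BC035044* on the opposite strand, so that reads there may belong to either gene. The log2 fold change was 0.14 for *Clec2d*, which encodes the NKR-P1B ligand Clr-b (adjusted p = 0.548), and for *H2-T23*, which encodes Qa-1, it was -0.07 (adjusted p = 0.787), whereas *Ulbp1*, which encodes the NKG2D ligand MULT1, stood at -0.14 (adjusted p = 0.885, edgeR). These are levels in the ILC1s themselves and not in the cells they meet.

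Marker genes of other cells were set beside the receptor levels. Of 10 T cell markers, 7 were in the table, and their summed level was 633 to 835 CPM in Ncr1gfp/gfp and 461 to 579 CPM in Ncr1+/+ libraries. Most of it came from *Cd3g* (687 ± 74.6 and 501 ± 53.1 CPM, mean ± SD, n = 5 each). Far lower were *Cd3e*, with 21.1 ± 12.7 and 5.72 ± 1.71 CPM, and *Cd8a*, with 19.4 ± 9.96 and 6.69 ± 3.31 CPM. The mean log2 CPM of the 5 tested T cell markers was higher in every Ncr1gfp/gfp library (p = 0.00794 in a two-sided exact permutation test, the smallest that 5 against 5 libraries can give). *Cd3e* and *Cd8a* were called higher, while *Cd5* and *Cd8b1* had too few counts to be tested. *Cd5* was at 0.919 ± 1.08 and 0.121 ± 0.189 CPM (4 of 5 Ncr1gfp/gfp libraries above all Ncr1+/+ libraries) and *Cd8b1* at 0.0106 ± 0.0237 and 0.304 ± 0.345 CPM. The mean log2 CPM of the 8 ILC1 markers was lower in Ncr1gfp/gfp libraries without overlap (exact permutation test, p = 0.00794), while their summed CPM overlapped (exact permutation test, p = 0.556). Of the 8, 6 had a negative and 2 a positive log2 fold change. *Il7r*, the one called gene of that list, stood at -0.97, and the other negative values lay between -0.19 and -0.01. *Itga1* was higher in every Ncr1gfp/gfp library (log2 fold change 0.32, adjusted p = 0.000481, edgeR), but under the fold threshold. Whether the list differs without *Il7r* was not tested. For 10 NK cell markers the summed level was 259 to 352 CPM in Ncr1gfp/gfp and 239 to 278 CPM in Ncr1+/+ libraries (exact permutation test, p = 0.0476). For the mean log2 CPM of the 8 tested ones the exact permutation test gave p = 0.508. Of these 8, 6 had a positive log2 fold change, with *Itgam* called higher, and 2 a negative one. *Irf8*, the most abundant, was lower in every Ncr1gfp/gfp library but was not called (log2 fold change -0.24, adjusted p = 0.0735, edgeR). The 6 myeloid markers summed to between 1669 and 1780 CPM and between 1340.0 and 1496 CPM, without overlap (exact permutation test, p = 0.00794). Nearly all of this was *Itgax* (1707 ± 50.6 and 1401 ± 55.5 CPM), which passed the p-value threshold but not the fold threshold (log2 fold change 0.28, adjusted p = 0.000539, edgeR). The other 5 markers had negative log2 fold changes with adjusted p of 0.666 or more (edgeR). The next most abundant, *Lyz2*, had 9.19 ± 6.75 and 11.9 ± 7.35 CPM. The mean log2 CPM of the myeloid list overlapped (exact permutation test, p = 0.341). The 5 hepatocyte markers summed to 53.3 CPM in Ncr1gfp/gfp replicate 3, 31.5 CPM in Ncr1+/+ replicate 1 and at most 5.45 CPM elsewhere. Without these 2 libraries 0 of the 10 receptor genes were called. For the mean log2 CPM of the 2 tested hepatocyte markers the exact permutation test gave p = 0.452. Among the Ncr1gfp/gfp libraries, replicates 3 and 4 were highest for *Cd3e*, for *Cd8a* and for the called *Klra7*. Among the Ncr1+/+ libraries, replicate 1 was highest for *Klra7* but lowest for *Cd3e* and *Cd8a*. Whether cells other than ILC1s contributed to the levels of these markers, of the receptor genes or of *Klra5* and *Klra7* was not tested.

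For each receptor gene, the gene outside the list whose log2 CPM followed it most closely over the 10 libraries was found, and then the next. *Gpr34*, a lysophospholipid receptor gene, followed *Klrd1* with a Pearson correlation of 0.98 and differed by 0.43 on the log2 scale (adjusted p = 0.0482, edgeR). *Eya2* followed *Klrc3* (0.97), *Crebbp* followed *Klrc1* (0.97), *Icos* followed *Klrb1b* (0.96), *Gimap6* followed *Klrb1f* (0.96) and *Dram2* followed *Klrc2* (0.92). *E130102H24Rik* stood nearest to *Klrb1c* (0.96), *Ivns1abp* to *Klrk1* (0.93), *Wipf1* to *Klrb1a* (0.92) and *Pkp3* to *Klrg1* (0.93). The next genes were *9930021J03Rik* for *Klrd1*, *Mettl21a* for *Klrc3*, *Amer1* for *Klrc1*, *Slc17a5* for *Klrb1b*, *Sc5d* for *Klrb1f*, *Trim37* for *Klrc2*, *Ralgapa1* for *Klrb1c*, *Ms4a4b* for *Klrk1*, *Abhd18* for *Klrb1a* and *Hist1h2ac* for *Klrg1*, with correlations between 0.91 and 0.96. These are the highest of the correlations with all other tested genes, over 10 points whose values share a library and its scaling, and they are given as a description only.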

How the data were processed

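RNA of sorted liver ILC1s was measured in 5 Ncr1gfp/gfp and 5 Ncr1+/+ libraries. The authors amplified 2 ng of total RNA from its polyA tail with a kit that does not mark strand, read 51 cycles from one end, trimmed reads with Trimmomatic and FASTP, mapped them to mm10 with STAR and counted them with HTSeq. They deposited raw counts per gene without normalization. The table's coordinates differ from those of mm10, and no build is printed for them. HTSeq leaves out reads with several mapping places, and without strand, sense and antisense reads cannot be told apart.

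From the counts, filterByExpr kept 11463 genes, libraries were scaled by TMM and tested with edgeR 4.0.16 (quasi-likelihood test, R 4.3.3) with no covariates. Calls needed a Benjamini-Hochberg adjusted p under 0.05 over all tested genes and a fold above 1.5 or below 0.7, thresholds from the authors' methods. Intervals were 95%. CPM used TMM-scaled library sizes, and log2 CPM a prior count of 2. The summed CPM of a list covered its genes in the table, and its mean log2 CPM only the tested ones. Marker lists were compared by two-sided exact permutation of the libraries. DESeq2 1.42.0, limma 3.58.1 (voom with quality weights), other scalings, filters and thresholds, a replicate block and leaving out each library were the alternatives. Within the genotypes, the counts of all 20 library pairs were further apart than sampling noise (chi-square per gene between 9.18 and 24.0). Gene spans were compared with RefSeq (GRCm38.p6), where all 10 symbols matched.

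The receptor genes and gene lists were chosen with earlier results of these data known. Named are the 10 receptor genes, called genes of the lists (where a list had fewer than 3, also its 3 most abundant tested genes), called genes of the stretch, the closest genes by correlation, and *Ncr1*. The rule was not kept in full for the marker lists. *Ikzf3* and *Tnfsf10* (ILC1), *Csf1r* (myeloid), and *Alb* and *Apoa1* (hepatocyte) fall under it but were left unnamed above. Named outside this rule, after their values were seen, were *Klri1*, *Hcst*, *Ulbp1*, *BC035044*, *Eomes*, *Klra4*, *Cd5*, *Cd8b1* and *Tbx21*. One sort marker and the marker list that holds its gene are not reported here.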

Additional observations from a re-analysis of the deposited data

Results flagged for a closer look

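Within each genotype, the highest and lowest of the 5 libraries were compared with the rest by Dixon's criterion (how far the outermost value lies from its neighbour, relative to the full range), which chance passes in about 1 of 20 groups. Of 58 groups of values examined, 6 passed, where 2.9 would be passed by chance if values were normally distributed. Many of the groups share genes and all share libraries, so they are not independent. Setting 6 beside 2.9 is therefore a description with no test. Ncr1gfp/gfp replicate 2 stood below the other Ncr1gfp/gfp libraries for *Klrc2* (81.8 CPM, the next library at 107 CPM) and for *Klrb1c* (1194 CPM, the next at 1345 CPM). In Ncr1gfp/gfp replicate 5 the NKG2 chains made up 45.5% of their sum with *Klrd1*, the next library being at 42.7%. The summed ligand genes reached 892 CPM in Ncr1+/+ replicate 1, with the next library at 796 CPM. The summed hepatocyte markers reached 31.5 CPM in Ncr1+/+ replicate 1 (next 5.45 CPM) and 53.3 CPM in Ncr1gfp/gfp replicate 3 (next 4.88 CPM).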

How the results depend on the processing

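The count of called receptor genes was 0 under each of the 19 alternative fits and both other thresholds. The count with an adjusted p under 0.05 was 1, *Klrd1*, in DESeq2, limma-voom and edgeR without a filter, and between 0 and 1 when each library was left out. Over all tested genes, the count of calls moved from 84 to 138 with edgeR's likelihood ratio test, 131 without a filter, 155 with the adjusted p alone and 23 with an absolute log2 fold change above 1, and was between 60 and 98 with a library left out. Of the 190 log2 fold changes of receptor genes under these fits, 174 kept their sign and their side of the threshold, 12 changed sign and 4, all of *Klrd1*, passed the threshold. The sign changed for *Klrg1* in limma-voom (-0.063) and without the libraries highest in hepatocyte markers, an alternative chosen after seeing the data (-0.24). With a library left out, the log2 fold change ran from -0.15 to 0.15 for *Klrg1*, from -0.039 to 0.057 for *Klrc1* and from -0.031 to 0.15 for *Klrb1a*. The other lectin-like receptors had 1 called gene in limma-voom and without the libraries highest in hepatocyte markers, and between 1 and 2 with a library left out, a check added after seeing the data. The cause of these changes was not tested. Same-numbered libraries did not deviate together (correlations between -0.017 and 0.044), so the numbers were not taken as pairs. With a replicate block in the model, edgeR called 87 genes, 0 of them receptor genes. *Klrg1* had 60 to 143 counts a library and varied by 24.0 and 38.0% (CV) within the genotypes, and its interval reached past both fold thresholds.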
